A study of Mus musculus with 3 samples.

Results

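The cells described here are barcodes of mouse submandibular gland organoids that were rich in transcripts of Igfbp2, Apoe, Sparcl1, Igfbp6, Plac8 and Cmah. Members were chosen by measured levels: they were the 7% of barcodes with the highest summed share of UMIs (unique molecular identifiers, counted transcripts) over these 6 genes, taken over the 3 libraries together. Barcodes with any Acta2 UMI were left out afterwards. Of 28450 barcodes with at least 2000 UMIs, at least 500 genes and at most 20% mitochondrial UMIs, 1991 were in the highest 7%, 47 of these held Acta2 and 1944 remained as members. Photon organoids gave 1101 members, proton organoids 570 and control organoids 273. Since levels of the 6 genes were used in the choice, those levels are descriptions and carry no test.

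The 3 groups were organoids given 7 Gy of photons, organoids given 7 Gy of protons (plateau), and unirradiated control organoids. All came from submandibular glands of C57BL/6 mice 8 to 12 weeks old, were irradiated (or not) on day 5 and were collected on day 11. All were cultured in Matrigel with EGF, FGF2, N2, insulin, dexamethasone, the kinase inhibitor Y27632 and media conditioned with Wnt3a and R-spondin1, so every group carried these agents. Organoids of 4 animals were used and pooled before sequencing, cells are not tied to animals in the labels, and live cells were sorted by exclusion of propidium iodide before 10x Genomics 3' library preparation. Each group was 1 library, so no difference between groups could be tested, each ratio compares libraries rather than treatments, and ranges in parentheses are exact 95% intervals that cover counting error only.

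Insulin-like growth factor binding proteins such as Igfbp2 and Igfbp6 are secreted carriers that bind insulin-like growth factors and set how much of them reaches the receptor Igf1r. Apoe is a secreted apolipoprotein that carries cholesterol and phospholipid between cells. Sparcl1 is a secreted matricellular glycoprotein of the SPARC family, and Cmah makes the sialic acid N-glycolylneuraminic acid in mouse cells. Plac8 is a small cysteine-rich intracellular protein found in several epithelia and leukocytes. Salivary duct epithelium has basal cells with Krt5, Krt14 and Trp63 and luminal cells with Krt7, Krt8 and Krt18.

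Members held a median of 3340 UMIs in the photon library, 3206 in the proton library and 3719 in control, against 3382, 3105 and 3193 in the other kept barcodes without Acta2 (9745 photon, 7339 proton and 9331 control barcodes). Member UMIs summed to 4040371 in photon, 2038830 in proton and 1103099 in control. Ribosomal protein genes took a larger share of UMIs in members than in other barcodes of every library: 22.7% against 18.8% in photon, 26.1% against 20.9% in proton and 20.4% against 17.4% in control. The part of that shift in the results was not tested. No barcode sequence of a member was a member in more than 1 library, and 28 sequences were kept in both photon and control, 27 in both proton and control and 18 in both proton and photon.

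Members made up 10.1% of kept barcodes in the photon library (9.55 to 10.7), 7.18% in the proton library (6.62 to 7.77) and 2.84% in control (2.52 to 3.19). The photon share was 3.56 times the control share (3.12 to 4.08), the proton share 2.53 times (2.19 to 2.93), and the proton share was 0.710 of the photon share (0.641 to 0.787). The lowest barcode inside the limit held 2 rule UMIs of 3803 (525.901 CPM, UMIs scaled to a counts-per-million total of the barcode) and the highest outside it 3 of 5707 (525.670 CPM), so the edge of the group is a matter of 1 UMI. The highest barcode reached 8275 CPM.

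The share depended on which gene led a member, meaning the gene whose UMIs outnumbered those of each of the other 5. Apoe-led members were 4.10% of kept photon barcodes (3.73 to 4.48), 2.13% of kept proton barcodes (1.82 to 2.47) and 2.29% of kept control barcodes (2.00 to 2.61). For Apoe-led members the photon share was therefore 1.79 times the control share, and the proton share was 0.931 of it. Plac8-led members were 1.96% of photon and 1.99% of proton barcodes, against 0.0104% in control, where there was 1 such barcode. Igfbp2-led members were 1.68% of photon and 0.491% of proton barcodes, against 0.0936% in control. Ranked without Apoe, the photon share was 8.73 times and the proton share 7.05 times the control share, and ranked without Plac8 they were 2.56 and 1.76 times the control share.

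**Figure D1:**
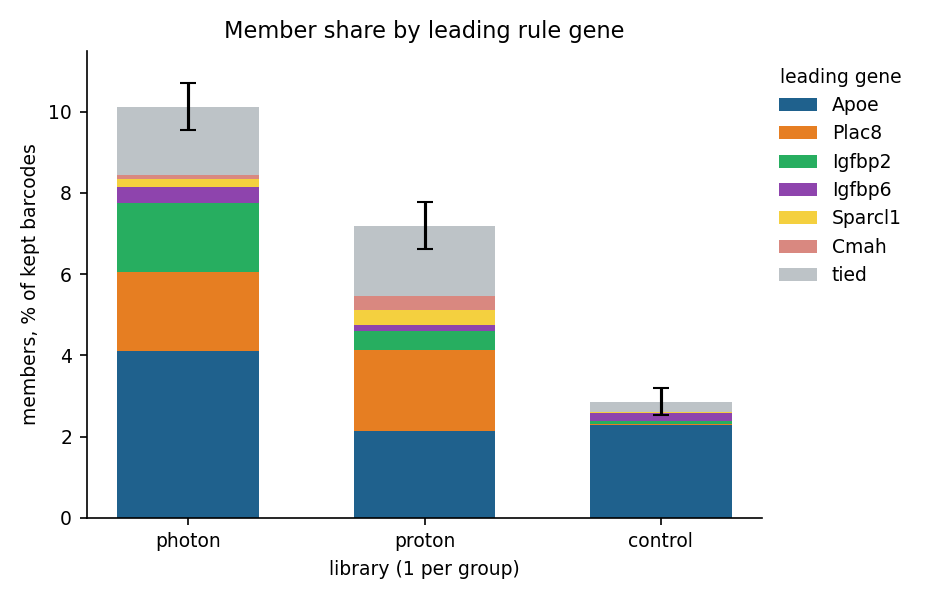
Members as a percentage of kept barcodes in the photon, proton and control libraries, stacked by the rule gene with the most UMIs in each member (tied, no gene alone in front). Error bars are exact 95% binomial intervals of the whole share. The bars reach 10.1%, 7.18% and 2.84%, and the Apoe segment is 4.10%, 2.13% and 2.29%.

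Most members rested on few transcripts. The median was 4 rule UMIs in each library, and 20.8% of photon, 27.5% of proton and 26.0% of control members held exactly 2. Only 1 of the 6 genes was seen in 36.4% of photon and 36.7% of proton members, against 73.3% of control members. At least 3 of the 6 genes were seen in 24.8% of photon and 23.2% of proton members, against 4.03% of control members. The 6 genes together were 0.137% of member UMIs in photon, 0.121% in proton and 0.122% in control, so their own UMIs hardly moved the CPM scale. Other genes could still differ with the choice of members. Among other barcodes 87.3% in photon, 89.5% in proton and 93.0% in control held no UMI of the 6.

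Igfbp2 (chr1:72824503-72852474, plus strand; GRCm38, as are all positions) was at 286 CPM (here of UMIs summed over barcodes) in photon members, 160 CPM in proton members and 63.5 CPM in control members. In other barcodes it was at 9.36, 4.49 and 2.34 CPM in the same libraries. After thinning it was seen in 37.4% of photon, 25.3% of proton and 10.6% of control members, and unthinned in 50.3%, 33.0% and 17.2%. Over all kept barcodes, with no choice of members, Igfbp2 stood at 38.2 CPM in photon, 16.1 CPM in proton and 4.56 CPM in control, so the same order of libraries held outside the rule. Members carried 73.8% of the library's Igfbp2 UMIs in photon and 71.2% in proton, against 43.5% in control.

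Apoe (chr7:19696109-19699188, minus strand) had another order among members, with 607 CPM in photon and 418 CPM in proton, against 1015 CPM in control. It was seen after thinning in 52.5% of photon and 46.8% of proton members, against 81.7% of control members (unthinned 60.9%, 57.4% and 90.8%). In other barcodes Apoe was at 13.5 CPM in photon, 10.6 CPM in proton and 17.1 CPM in control, with thinned shares of 2.54%, 2.07% and 3.08%. Over all kept barcodes it was at 74.4 CPM in photon, 40.9 CPM in proton and 50.1 CPM in control. Control members were therefore mostly Apoe barcodes, and 80.6% of them were led by Apoe, against 40.5% of photon and 29.6% of proton members.

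Plac8 (chr5:100553725-100572245, minus strand) was at 300 CPM in photon members and 391 CPM in proton members, against 10.9 CPM in control members. The control value came from 12 UMIs in 2 barcodes, 10 of them in 1 barcode. Over all kept barcodes Plac8 was at 41.0 CPM in photon and 38.8 CPM in proton, against 0.595 CPM in control. Sparcl1 (chr5:104079111-104113733, minus strand) was at 49.0 CPM in photon and 89.3 CPM in proton members, against 16.3 CPM in control members. Cmah (chr13:24327404-24477377, plus strand) was at 36.4 CPM in photon and 95.2 CPM in proton members, against 12.7 CPM in control members. These 2 genes had the same order of libraries, with proton highest. Igfbp6 (chr15:102144362-102149511, plus strand) was at 95.8 CPM in photon and 59.3 CPM in proton members, against 105 CPM in control members, and the photon and control intervals overlapped (86.5 to 106 and 86.9 to 126). Over all kept barcodes Igfbp6 had another order, with 13.6 CPM in photon and 7.80 CPM in proton, against 5.33 CPM in control.

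**Figure D2:**
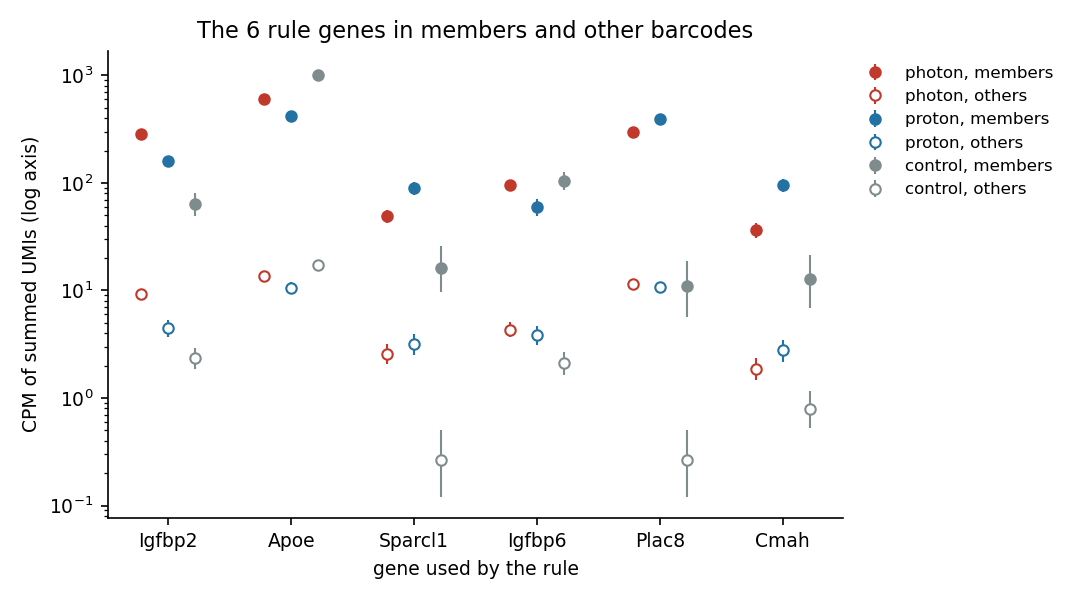
Level of each of the 6 rule genes in members (filled) and other barcodes (open) of the photon, proton and control libraries, in CPM on a log axis with exact 95% Poisson intervals. Apoe is highest in control members at 1015 CPM, and Plac8 is lowest there at 10.9 CPM.

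Because Plac8 was the rule gene with the widest gap between the irradiated libraries and control, its promoter is shown beside that of Isg15, an interferon-induced ubiquitin-like modifier whose level differed the same way. Both are 300 bases from RefSeq on GRCm38.p6, minus strand, printed 5′ to 3′, and capitals mark matches to GAAA followed by any 2 bases and a second GAAA, a spacing known from interferon response elements, searched on both strands.
Plac8, chr5:100572156-100572455: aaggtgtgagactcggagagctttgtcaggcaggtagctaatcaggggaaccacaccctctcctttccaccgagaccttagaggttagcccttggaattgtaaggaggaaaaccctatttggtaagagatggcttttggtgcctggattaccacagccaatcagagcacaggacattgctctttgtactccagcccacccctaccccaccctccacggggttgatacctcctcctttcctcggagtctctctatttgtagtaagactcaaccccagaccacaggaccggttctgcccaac
Isg15, chr4:156200769-156201068: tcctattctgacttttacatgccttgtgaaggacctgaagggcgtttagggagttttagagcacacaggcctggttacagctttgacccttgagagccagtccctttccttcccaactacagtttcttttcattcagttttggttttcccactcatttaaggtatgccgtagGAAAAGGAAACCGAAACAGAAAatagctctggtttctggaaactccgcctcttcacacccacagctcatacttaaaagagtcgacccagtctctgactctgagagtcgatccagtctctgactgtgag
The Isg15 window held 3 overlapping matches and the Plac8 window none. The motif was in 3.44% of the 32851 promoters of the table, in none of the 5 rule genes with a promoter there (Igfbp2, Apoe, Igfbp6, Plac8 and Cmah) and in 8 of the 16 genes of the interferon list described further on that had a promoter there. A missing match says only that these letters are not in these windows.

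In the irradiated libraries each of the 6 genes was seen more often in barcodes with another of the 6 than in those without, except for Sparcl1 with Cmah, whose shares lay close together. In control, where Plac8 was seen in only 5 thinned barcodes, Plac8 was seen together with none of Igfbp2, Sparcl1, Igfbp6 and Cmah. In barcodes thinned to 2000 UMIs, Apoe was seen in 33.8% of photon barcodes with Igfbp2 and 6.28% of those without, in 30.9% and 4.65% in proton, and in 32.8% and 5.17% in control. Sparcl1 was seen in 1 of 105 photon barcodes with Cmah (0.952%) and in 1.23% of those without, and in 2 of 117 proton barcodes with Cmah (1.71%) and in 1.44% of those without. No control barcode held both Sparcl1 and Cmah. The 6 genes were chosen with earlier results of these data known, so these shares and the ratios that follow are descriptions only. When barcodes were ranked on only 5 of the genes, the gene left out was higher in the chosen barcodes than in the rest. Left out in turn, Igfbp2 was 7.78 times higher in photon (7.02 to 8.63), 9.28 times in proton (7.65 to 11.2) and 11.2 times in control (7.71 to 16.1). Apoe was 7.90 times higher in photon (7.35 to 8.50), 8.11 times in proton (7.19 to 9.14) and 7.21 times in control (5.99 to 8.62). Plac8 was nearest to the rest, at 3.96 times in photon (3.55 to 4.41) and 5.46 times in proton (4.76 to 6.26), while in control 2 UMIs gave 2.52 times with an interval that includes 1 (0.285 to 10.5).

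**Figure D3:**
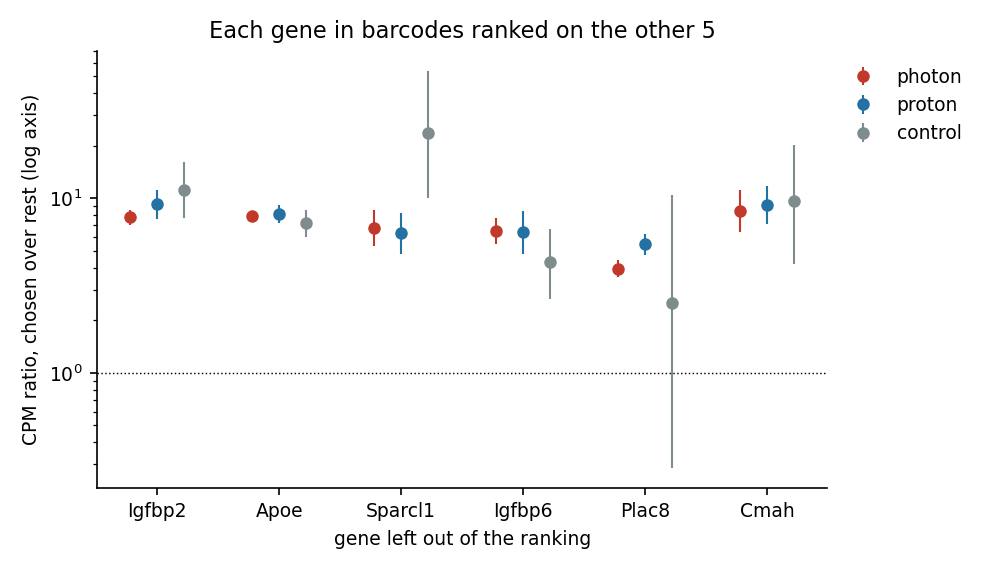
Level of each gene in barcodes ranked on the other 5, as its CPM in the highest 7% over its CPM in the rest, for the photon, proton and control libraries on a log axis with exact 95% intervals. All ratios except that of Plac8 in control lie above 1 with their intervals.

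Members were epithelial by their defining markers. After thinning, Epcam was seen in 78.4% of photon, 57.2% of proton and 87.9% of control members, against 89.8%, 71.2% and 87.7% of other barcodes. The basal keratin Krt14 was seen in 96.3% of photon members against 79.8% of other barcodes, in 85.8% against 62.0% in proton and in 91.9% against 80.0% in control. Trp63, the transcription factor of basal epithelium, was at 147 CPM in photon, 215 CPM in proton and 228 CPM in control members, against 93.8, 135 and 167 CPM in other barcodes. Of 10 fibroblast markers, 7 were at 0 in every library's members, Col1a1, Col1a2, Col3a1 and Pdgfra among them, and the list summed to 61.4 CPM in photon, 73.1 in proton and 51.7 CPM in control members, nearly all of it Fbln1 (58.4, 72.1 and 50.8 CPM). In other barcodes the fibroblast list was lower, at 31.5 CPM in photon, 30.5 in proton and 35.2 CPM in control, and its part in the results was not tested. Of 12 macrophage markers, 6 were at 0 in members (Ptprc, Adgre1, C1qa, C1qb, C1qc and Tyrobp), and the list summed to 51.2, 33.4 and 47.1 CPM, most of it Cd14. Pericyte markers (4 of 8 at 0), endothelial markers (5 of 10), markers of leukocytes other than macrophages (7 of 11), glial markers (3 of 11) and erythroid markers (5 of 6) summed to between 0 and 66.2 CPM in the members of any library. Markers of intercalated duct (34.7 CPM in photon, 95.2 in proton and 38.1 in control members), ionocytes (52.0, 54.4 and 22.7 CPM) and granular tubules (3.22, 7.36 and 0.907 CPM) were low as sums over each list. The nuclear RNA Malat1 was at 16067, 10167 and 27627 CPM in photon, proton and control members, against 20798, 13977 and 32871 CPM in other barcodes, and the part of that difference in the results was not tested. Myoepithelial markers summed to 430 CPM in photon, 261 in proton and 365 CPM in control members, against 284, 192 and 206 CPM in other barcodes, most of it Cald1 (409, 228 and 338 CPM in members). Those other than Cald1 and Smtn stood under 2 CPM in members, with Acta2 at 0 by the rule and Tagln, Oxtr, Des and Myocd at 0 without it.

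Across all 3 libraries, 109 of 5680 genes with a mean of at least 25 CPM were at least 1.5-fold higher in members than in other barcodes (1.92%), and 241 were at least 1.5-fold lower (4.24%). With scaling by the median gene ratio in place of total UMIs the split was 167 higher and 157 lower, the median gene having a log2 ratio of -0.13 in photon, -0.15 in proton and -0.09 in control. The counts include rule genes. Leaving these out, the genes furthest above other barcodes were Krtdap, Apoc1, Meg3, Lgals7, Aqp5, Krt16, Sostdc1, Adamts9, Pi15 and Ptn. Of these, Apoc1, Meg3, Aqp5, Krt16 and Pi15 were under 25 CPM in other barcodes of every library. Such genes reach the mean of 25 CPM only through members, so this ranking and all counts of members over other barcodes are descriptions. Krtdap, a secreted peptide of differentiating keratinocytes, was at 810 CPM in photon, 1365 CPM in proton and 262 CPM in control members, against 127, 203 and 31.9 CPM in other barcodes. Its members-over-others ratio was 6.39 in photon (6.11 to 6.69), 6.72 in proton (6.41 to 7.03) and 8.22 in control (7.19 to 9.36).

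Apoc1, an apolipoprotein gene that lies beside Apoe (chr7:19689481-19692660), was at 66.1 CPM in photon, 89.3 CPM in proton and 85.2 CPM in control members, against 8.87, 14.8 and 10.6 CPM in other barcodes. Unlike Apoe it differed little between the libraries' members. Lgals7, an epithelial galectin (chr7:28863853-28866284), was at 1142 CPM in photon, 813 CPM in proton and 592 CPM in control members, against 226, 149 and 85.0 CPM in other barcodes, a ratio of 5.05, 5.44 and 6.96. Pearson correlations with the summed count of the 6 were taken over 28359 barcodes without Acta2 thinned to 2000 UMIs. They were ranked for genes with a mean of at least 25 CPM, leaving out rule, mitochondrial and ribosomal protein genes among others. Lgals7 had the highest of those ranked (0.384 pooled, with 0.405 in photon, 0.351 in proton and 0.240 in control). Sostdc1, a secreted antagonist of BMP and Wnt signalling, followed at 0.238 and Krtdap at 0.217. Lmo1, Gpx2, Krt14, Fabp5, Ppia and H2afz, also among the 10 most correlated genes, lay between 0.153 and 0.205. Pooled values such as these mix the 3 libraries, so differences between libraries enter them. Within single libraries the same genes lay between 0.136 and 0.233 in photon, 0.152 and 0.201 in proton, and 0.071 and 0.120 in control.

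Sostdc1 was at 707 CPM in photon, 210 CPM in proton and 613 CPM in control members, against 223, 76.0 and 114 CPM in other barcodes. Aqp5, the apical water channel of acinar and intercalated duct cells, was at 52.2, 39.7 and 45.3 CPM in photon, proton and control members, against 9.09, 9.05 and 11.1 CPM in other barcodes. Of the 11 acinar markers it alone had a mean of at least 25 CPM, and 6 (Bhlha15, Prol1, Bpifa2, Smgc, Mucl2 and Car6) were at 0 in members. Meg3, a long noncoding RNA of the imprinted Dlk1 locus, was at 79.4, 49.0 and 109 CPM in members against 13.4, 7.38 and 10.6 CPM in other barcodes.

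The genes furthest below other barcodes were Chrm3, Ppargc1a, Il15, Crisp1, Ano3, Csprs, Fn1, Tc2n, Ifi207 and Ptprd. Chrm3, the muscarinic receptor through which acetylcholine drives saliva secretion, was at 25.7 CPM in photon, 51.5 CPM in proton and 15.4 CPM in control members, against 152, 264 and 110 CPM in other barcodes. Its ratio was 0.169 in photon (0.138 to 0.205), 0.195 in proton (0.159 to 0.237) and 0.140 in control (0.0813 to 0.224). Il15, a cytokine that sustains natural killer and memory T cells, was at 12.9, 24.5 and 7.25 CPM in photon, proton and control members, against 50.6, 96.6 and 36.8 CPM in other barcodes. Both genes were low in the members of every library.

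**Figure D4:**
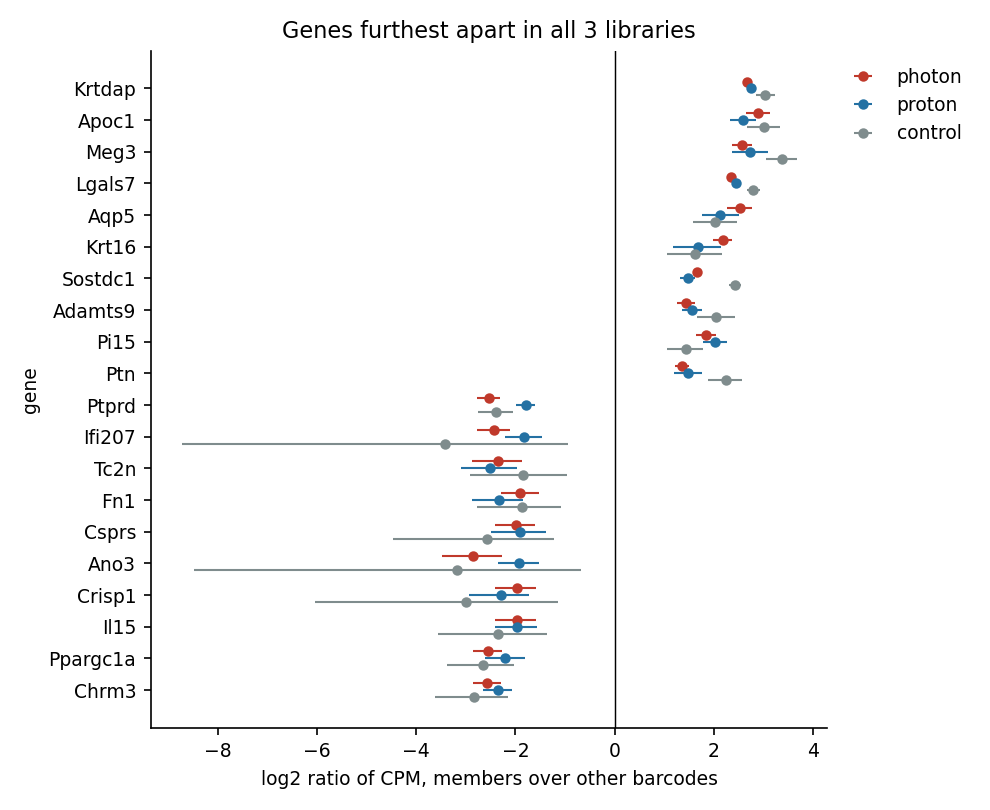
The 10 genes furthest above and the 10 furthest below other barcodes in all 3 libraries, the 6 rule genes left out, as the log2 ratio of CPM in members over other barcodes, with exact 95% counting intervals for photon, proton and control. Krtdap heads the list with ratios of 6.39, 6.72 and 8.22, and Ano3 and Ifi207 have wide control intervals.

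Among the IGF axis, 12 of 23 genes had a mean of at least 25 CPM, 3 of them at least 1.5-fold higher than in other barcodes in all libraries and 2 lower (1.92% and 4.24% over all genes), but Igfbp2 and Igfbp6 were fixed by the choice of members. The median log2 ratio was -0.13 in photon, -0.18 in proton and -0.11 in control. The third higher gene was Igfbp3, a binding protein that carries most circulating IGF, at 50.2 CPM in photon, 37.3 CPM in proton and 47.1 CPM in control members against 19.6, 20.9 and 25.5 CPM in other barcodes. The lower ones were the insulin receptor Insr, at 24.0, 52.0 and 36.3 CPM in members against 44.8, 80.2 and 61.5 CPM, and its adaptor Irs2, at 23.3, 20.6 and 30.8 CPM against 43.1, 39.4 and 70.2 CPM. The ligands were scarce: Igf1 was at 1.49 CPM in photon, 1.47 CPM in proton and 1.81 CPM in control members, and Igf2 rested on 2, 1 and 2 UMIs. The receptor Igf1r was at 73.0, 146 and 104 CPM in members against 93.6, 179 and 137 CPM in other barcodes, within 1.5-fold everywhere.

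In lipid transport 4 of 13 measured genes were higher in members of all libraries and 2 lower (1.92% and 4.24% over all genes). Medians were 0.14 in photon, 0.13 in proton and 0.40 in control (log2). Among the higher ones were Apoe, used by the rule, Apoc1 and Fabp5. Apoe and Apoc1 were low in other barcodes and entered the measured genes only through members, so these counts are descriptions. The fatty acid carrier Fabp5 was among the most abundant member transcripts, at 7587 CPM in photon, 7010 CPM in proton and 3021 CPM in control members, against 3512, 2464 and 1761 CPM in other barcodes. The lower ones were the cholesterol exporter Abca1, at 12.6, 28.4 and 16.3 CPM against 45.5, 91.1 and 64.2 CPM, and the chaperone-like apolipoprotein Clu, at 41.8, 77.0 and 51.7 CPM against 204, 233 and 150 CPM.

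Of 15 genes of the SPARC and matricellular group 6 had a mean of at least 25 CPM. In members of all libraries 2 of these were higher (Sparcl1, used by the rule, and Sparc) and 1 lower. Sparcl1 reached that mean only through members, so these counts are descriptions. Over all genes the shares called higher and lower were 1.92% and 4.24%. Medians were 0.20 in photon, -0.12 in proton and 0.47 in control (log2). Sparc, a collagen-binding protein of basement membranes, was at 237 CPM in photon, 109 CPM in proton and 160 CPM in control members, against 88.3, 50.7 and 105 CPM in other barcodes. Ccn2, a target of YAP, was lower in members of all libraries, at 73.3, 45.6 and 79.8 CPM against 198, 111 and 193 CPM. Of 19 genes of sialic acid metabolism only 3 had a mean of at least 25 CPM in this comparison and none was called. Cmah, used by the rule, fell just short of that mean and was not among the 3. The activating enzyme Cmas, which was, stood at 60.1, 28.0 and 45.3 CPM in members against 64.5, 32.4 and 61.2 CPM.

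Summed over all 22 G2 and M phase genes, members were at 1659 CPM in photon, 1404 in proton and 907 in control. Other barcodes were at 1092, 693 and 394 CPM. Of the 11 measured, 9 were at least 1.5-fold higher in members of all libraries and none lower (1.92% and 4.24% over all genes). Their medians were 0.86 in photon, 1.20 in proton and 2.29 in control (log2). Genes low in other barcodes can reach the mean of 25 CPM through members, so the counts in this paragraph are descriptions. Birc5, which encodes the chromosomal passenger protein survivin, was at 138 CPM in photon, 73.6 CPM in proton and 73.4 CPM in control members, against 64.1, 32.0 and 13.2 CPM in other barcodes. Mki67, a marker of cycling cells, was seen after thinning in 10.5% of photon members against 4.84% of other barcodes, in 14.9% against 5.93% in proton and in 5.13% against 1.04% in control. Of 13 measured S phase genes 6 were higher and none lower. All 20 of that list summed to 1089, 927 and 849 CPM in members against 737, 516 and 364 CPM. The ribonucleotide reductase subunit Rrm2 was at 58.4, 35.3 and 29.0 CPM in members against 33.5, 17.4 and 5.98 CPM. Of 13 measured cholesterol synthesis genes 4 were higher and none lower: Pmvk, Fdps, Idi1 and Sqle. All 20 of that list summed to 1734, 1367 and 1495 CPM in members against 1202, 832 and 641 CPM. Fdps, which makes farnesyl diphosphate, was at 341, 262 and 190 CPM in members against 189, 112 and 52.7 CPM.

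Of 15 measured p53 targets 7 were at least 1.5-fold lower in members of every library and none higher (4.24% and 1.92% over all genes). Medians lay between -1.10 in photon and -0.53 in control (log2). Cdkn1a, the cell cycle inhibitor p21, was at 118 CPM in photon, 73.6 CPM in proton and 104 CPM in control members, against 337, 202 and 172 CPM in other barcodes, and in control 31 of the 115 member UMIs were in 1 barcode. It was seen after thinning in 15.3% of photon members against 39.1% of other barcodes, in 12.3% against 27.5% in proton and in 11.7% against 22.3% in control. Trp53inp1, a stress-induced p53 cofactor, was at 64.6, 144 and 50.8 CPM in members against 203, 381 and 166 CPM. Mdm2, which targets p53 for destruction, was at 51.2, 64.3 and 38.1 CPM against 126, 154 and 70.7 CPM.

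Of 10 measured luminal duct genes 2 were lower in all libraries and none higher (4.24% and 1.92% over all genes). Medians were -0.81 in photon, -0.61 in proton and -0.28 in control. Krt18 was at 562 CPM in photon, 397 CPM in proton and 592 CPM in control members, against 1439, 809 and 948 CPM in other barcodes. Cldn4, a tight junction protein of luminal epithelium, was at 46.3, 42.7 and 95.2 CPM in members against 144, 131 and 193 CPM. Of 10 basal duct genes Krt14 was higher and none lower, with medians of 0.28, 0.26 and 0.26 in photon, proton and control, and Krt14 was at 3644, 1629 and 2905 CPM in members against 2088, 807 and 1582 CPM. The squamous list split, with 2 of 8 measured genes higher and 1 lower. Its medians were 0.79 in photon, 0.81 in proton and 0.47 in control (log2). Krtdap and Sprr1b were higher while Sprr1a, a cornified envelope precursor, was lower at 517, 488 and 805 CPM in members against 1475, 1316 and 2475 CPM.

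In cultures that all received dexamethasone, 4 of the 11 measured glucocorticoid-responsive genes were called lower in members and none higher (medians -0.53 in photon, -0.45 in proton and -0.53 in control). Fkbp5, a glucocorticoid-induced chaperone of the receptor, was at 41.1 CPM in photon, 61.3 CPM in proton and 88.8 CPM in control members, against 89.3, 114 and 188 CPM in other barcodes. Of 6 measured secretory genes Wfdc18 was higher, at 1263, 1129 and 719 CPM in members against 682, 591 and 273 CPM, and Ltf, which encodes lactoferrin, was lower, at 61.1, 32.9 and 10.9 CPM against 100, 70.1 and 58.1 CPM. Of 13 cytoskeletal genes the tropomyosin Tpm2 was higher. Over all genes 1.92% were called higher and 4.24% lower, so a single call or none says little about lists this short. No measured gene of the MHC class I (13), basement membrane (18), Wnt (5) or Notch (6) lists was called in either direction. Nor was any of 21 interferon response genes, where a call needed all 3 libraries and control members held few such UMIs. Their median log2 ratio was -0.48 in photon and -0.40 in proton, against 0.05 in control. Ifit3 in members was at 0.457 of other barcodes in photon and 0.492 in proton, while Ifi27l2a was at 1.25 and 1.31. The whole list summed to 9808 CPM in photon and 11362 CPM in proton members, against 10447 and 10890 CPM in other barcodes. Ifi27l2a alone gave 4690 CPM of these sums in photon and 7396 CPM in proton members, against 3747 and 5651 CPM in other barcodes, so the order of the sums rests largely on this gene. Among AP-1 and immediate early genes 1 of 15, Klf6, was lower.

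Photon members were then set against control members. Of 5377 genes with a mean of at least 25 CPM, 277 were at least 1.5-fold higher in photon members (5.15%) and 652 at least 1.5-fold lower (12.1%). With scaling by the median gene ratio the split was 425 higher and 381 lower, as the median gene stood at -0.11 (log2) in members and -0.10 in other barcodes. Summed over all 23 type I interferon response genes, with no filter on level, members were at 9808 CPM in photon and 821 CPM in control, and other barcodes at 10447 CPM in photon and 756 CPM in control. Each of the 23 had a higher CPM in photon than in control members, but no count of calls is given, since several reach a mean of 25 CPM through the irradiated library alone. Ifi27l2a gave 4690 of the 9808 CPM. Ifit3, an interferon-induced RNA-binding protein, was at 193 CPM in photon members and at 0 UMIs in control members. With 3 counts in place of that 0 the ratio was 71.1, and the exact interval started at 57.7. Isg15 was seen after thinning in 81.1% of photon members, against 13.2% of control members, and in other barcodes in 81.5% and 7.58%. Summed over 18 MHC class I genes, members were at 6148 CPM in photon and 1787 CPM in control, and other barcodes at 6545 and 1800 CPM, B2m, the common light chain, being at 1630 CPM in photon members and 219 CPM in control members, a ratio of 7.43 (6.54 to 8.48).

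The 10 genes furthest above control in photon members were Ccl5, Trim30a, Ifit3, Psca, H2-Q7, Zbp1, Apol9a, Plac8, Apol9b and Iigp1. Apart from Psca and Plac8 these are known to be interferon-inducible, and Apol9a and Apol9b, like H2-Q7 and its neighbours, have near-identical copies that counting can split. Ccl5, a T cell attracting chemokine, was at 129 CPM in photon members and rested on 1 UMI in control members, a ratio of 143 (25.5 to 5640). It came from 33 photon members, and 139 of the 522 UMIs were in 1 of them. The 10 lowest were Ifi27, Mill1, Fxyd2, Kcnq1, Fbxo2, Orm1, Aldh3a1, Slc25a48, Ldlrad4 and Adarb1. Ifi27 was at 18.6 CPM in photon members and 195 CPM in control members, 0.0952 of control (0.0722 to 0.124), and at 0.158 of control in other barcodes. Fxyd2, a sodium pump subunit, was at 21.3 CPM in photon members and 78.9 CPM in control members, but 42 of the 87 control UMIs were in 1 barcode and the ratio without the highest barcode of each library was 0.470 instead of 0.270.

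The 22 G2 and M phase genes summed to 1659 CPM in photon members and 907 CPM in control members, and to 1092 CPM in photon and 394 CPM in control among other barcodes. Tpx2, a spindle assembly factor, was at 66.8 CPM in photon members and 29.9 CPM in control members, a ratio of 2.23 (1.55 to 3.31), and the ratio was 5.35 in other barcodes. None of 12 measured p53 targets was called in either direction, where 5.15% were called higher and 12.1% lower over all genes. Their median was 0.06 in members and 0.42 in other barcodes. Cdkn1a, for one, was at 118 CPM in photon members and 104 CPM in control members, but without the highest barcode of each library its ratio was 1.51 (1.20 to 1.93), past the 1.5-fold mark, since 31 of the 115 control UMIs were in 1 barcode. None of these differences between members and other barcodes was tested. Igfbp4, an inhibitory IGF carrier, was at 27.5 CPM in photon members and 56.2 CPM in control members (0.489; 0.355 to 0.678). Fabp4 was at 175 CPM in photon members and 15.4 CPM in control members, where 12 of 17 UMIs were in 1 barcode.

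Proton members were set against control members in the same way. Of 5537 genes, 715 were at least 1.5-fold higher in proton members (12.9%) and 1043 lower (18.8%). The 10 furthest above were Ccl5, Trim30a, Ifit3, Plac8, H2-Q7, Zbp1, Ifi27l2a, Rsad2, Fabp4 and Iigp1. The 23 interferon response genes summed to 11362 CPM in proton members and 821 CPM in control members, and to 10890 CPM in proton and 756 CPM in control among other barcodes, each of the 23 again having a higher CPM in proton than in control members. The MHC class I genes summed to 3924 CPM in proton members and 1787 CPM in control members. Ifi27l2a, an interferon-induced mitochondrial protein, was at 7396 CPM in proton members and 265 CPM in control members, a ratio of 27.9 (24.9 to 31.5). Ccl5 was at 457 CPM in proton members, 328 of its 931 UMIs being in 1 of 33 members. Without the highest barcode of each library no control UMI remained. With 3 counts in its place the ratio to control was 109, and the exact interval started at 88.1.

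The 10 genes furthest below control in proton members were Ifi27, Gm20186, Fra10ac1, Aldh3a1, Orm1, Ccn1, Aox3, Nlrp10, Jun and Mill1. Among AP-1 and immediate early genes 9 of 14 were called lower and none higher, with a median of -0.67 in members and -0.87 in other barcodes. Jun was at 164 CPM in proton members and 757 CPM in control members, a ratio of 0.216 (0.190 to 0.246), and in photon members it was at 771 CPM. Igfbp7, a matrix-bound IGF binding protein, was at 145 CPM in proton members and 350 CPM in control members (0.413; 0.354 to 0.482), while the ratio was 0.850 in other barcodes. G2 and M phase genes summed to 1404 CPM in proton members and 907 CPM in control members, and to 693 CPM in proton and 394 CPM in control among other barcodes. Among p53 targets 2 of 14 were higher and 4 lower, where the shares over all genes were 12.9% and 18.8%. Trp53inp1 was at 144 CPM in proton members and 50.8 CPM in control members, and Plk2, a stress-induced kinase, at 91.7 CPM in proton members and 276 CPM in control members.

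**Figure D5:**
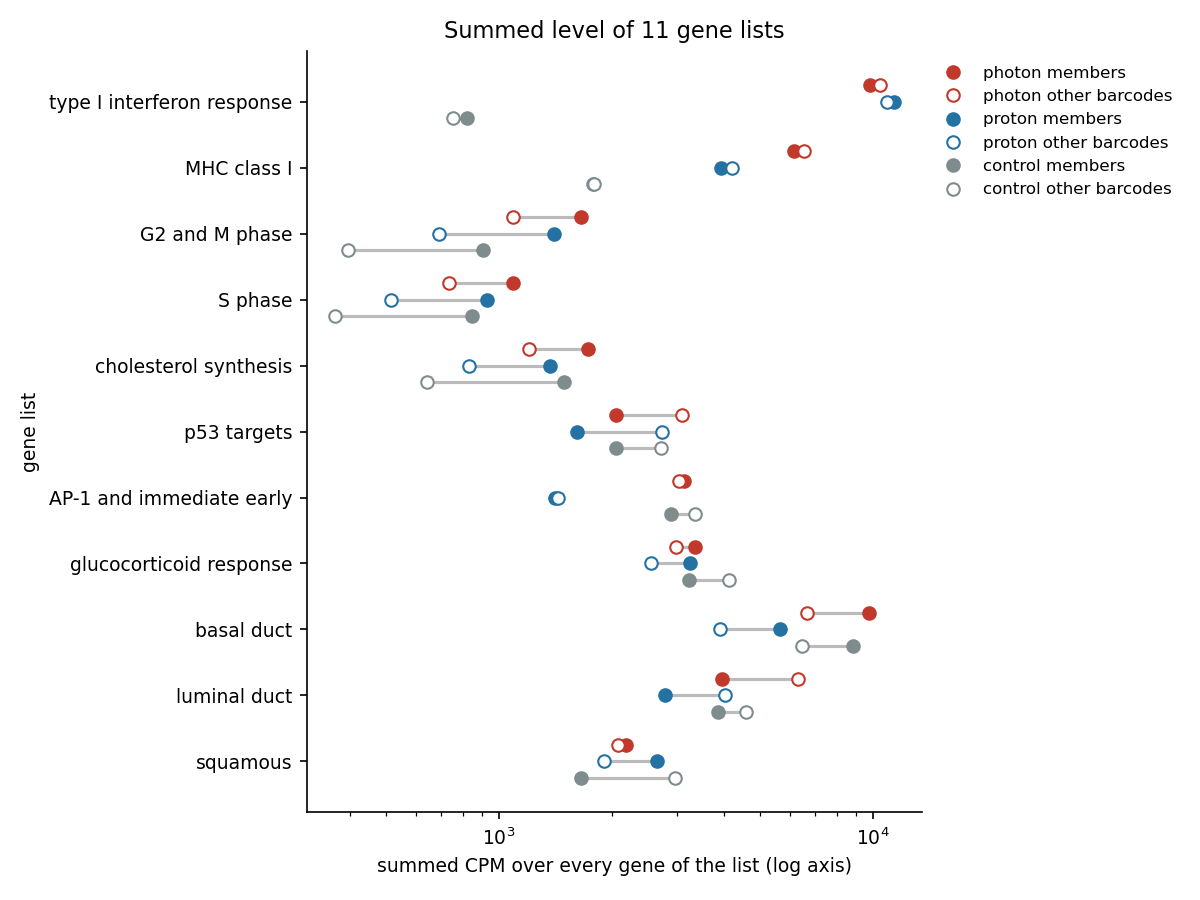
Summed CPM over every gene of 11 lists, on a log axis, in members (filled) and other barcodes (open) of the photon, proton and control libraries, so that abundant genes weigh most. The interferon list is at 9808, 11362 and 821 CPM in members, of which Ifi27l2a alone gives 4690, 7396 and 265 CPM. The G2 and M phase list is at 1659, 1404 and 907 CPM in members, above other barcodes in each library.

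Proton members differed from photon members in 1170 of 5423 genes at least 1.5-fold higher (21.6%) and 960 lower (17.7%). The 5 furthest above were Lars2, Ccl5, Dach1, Camk1d and AY036118. Lars2, the mitochondrial leucyl-tRNA synthetase, was at 223 CPM in proton members and 56.7 CPM in photon members, and in other barcodes it was at 256 CPM in proton and 60.6 CPM in photon. The 5 furthest below were Psca, Sprr2d, Sprr2f, Ppbp and Gm20186. For Psca, Sprr2d, Sprr2f and Ppbp the photon level came from few barcodes, between 7 and 33 members holding any UMI, and Sprr2 genes have close copies that counting can split. Igfbp2 was at 160 CPM in proton members and 286 CPM in photon members, and Cmah at 95.2 CPM in proton members and 36.4 CPM in photon members. Interferon response genes differed both ways, 2 of 22 being higher and 5 lower in proton members, with a median of -0.14. Over all genes 21.6% were called higher and 17.7% lower. Ifi27l2a was at 7396 CPM in proton members and 4690 CPM in photon members, while Ifit3 was at 105 CPM in proton members and 193 CPM in photon members.

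Since the leading gene differed between libraries, Apoe-led members were also compared alone, a choice made after the data were seen. Krtdap was at 721 CPM in the 446 Apoe-led photon members, 1221 CPM in the 169 proton ones and 239 CPM in the 220 control ones. Lgals7 was at 1136 CPM in photon, 983 CPM in proton and 641 CPM in control. B2m was at 1596, 1190 and 246 CPM in photon, proton and control Apoe-led members. These orders of libraries were those of all members. In Plac8-led members, which were nearly absent from control, Krt8 was at 343 CPM in photon and 328 CPM in proton, against 210 and 180 CPM in Apoe-led members of the same libraries. Igfbp2-led members had Krt8 at 203 CPM in photon and 328 CPM in proton. The basal keratin Krt14 was also higher in Plac8-led than in Apoe-led members, at 3828 against 2929 CPM in photon and 1622 against 1303 CPM in proton. Sparcl1-led members were few, 22 in photon and 31 in proton, and their Krtdap was at 2397 and 3306 CPM.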

How the data were processed

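The authors deposited, per the file headers, a matrix of raw UMI counts per gene and barcode for each of 3 libraries, made with Cell Ranger 7.0.1 on mm10 per the submitters' processing notes (the file headers name 7.0.0). Deposited libraries held 15926 (photon), 14525 (proton) and 14266 (control) barcodes with 47514102, 37116107 and 40166701 UMIs, and every barcode held at least 500 UMIs. Positions came from GENCODE mouse release M21 by Ensembl ID (32235 of 32285 matched), and promoters from RefSeq.

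Counts of members and of other barcodes without Acta2 were summed per library and scaled to CPM. Called genes differed at least 1.5-fold with a mean of at least 25 CPM, with no test, as each group is 1 library. Intervals are exact (Clopper-Pearson, conditional binomial for ratios), and 3 counts per library replaced a count of 0. Shares of barcodes with a UMI were taken after thinning each barcode to 2000 UMIs. No doublet caller was run, so doublets were kept, and leaving out the 5% of barcodes with most UMIs in each library stood in for removal. Named genes were the 6 rule genes, the 10 highest and 10 lowest of each comparison (5 for proton against photon), the 10 most correlated with the summed 6, and genes of the 4 role lists and 3 per other list. The few others named (Cdkn1a, Isg15 and Krt8 among them) were chosen after their values were seen. Members, the 17 gene lists and the 16 marker lists were chosen with earlier results of these data known. Of 465 list symbols 1 was not analysed here, and some genes are not reported here. Results were recomputed under 19 other settings, and under 3 more chosen after the data were seen. Calculations used Python 3.11.15, numpy 2.4.6, scipy 1.17.1 and pandas 2.3.3, and were tested on simulated data.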

Additional observations from a re-analysis of the deposited data

Results flagged for a closer look

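Psca, a small surface protein of the Ly6 family found in stratified and glandular epithelia, stood out because it went opposite ways in members and other barcodes. In members it was at 180 CPM in photon and 3.63 CPM in control, a ratio of 49.6. In other barcodes it was at 66.8 CPM in photon and 95.5 CPM in control, a ratio of 0.699. The difference between these ratios was not tested. Of the 727 Psca UMIs in photon members, 717 were in 1 barcode, which held 8458 UMIs and 1338 genes, above 98.4% of kept photon barcodes in UMIs. That barcode also held 384 of the 960 Sprr2f UMIs, 120 of the 425 Sprr2d UMIs and 123 of the 315 Ppbp UMIs of photon members, and it was a member through 23 Plac8 UMIs, with no Apoe or Igfbp2 UMI. Without the highest barcode of each library Psca was 2.73 times control in photon members (0.388 to 118), on 1 control UMI.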

How the results depend on the processing

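No paired analysis was possible because each group is 1 library, and for the same reason no replicate could be left out. The shares, photon and proton over control and proton over photon, were 3.56, 2.53 and 0.710. Taking 7% within each library gave 0.977, 0.990 and 1.01 by construction, and Apoe-led members alone gave 1.79, 0.931 and 0.520. Ranking without Apoe gave 8.73, 7.05 and 0.808. Ranking without Plac8 gave 2.56 and 1.76 over control. Photon over control was also 2.81 with a 10% limit, 2.91 with a higher UMI minimum and 2.87 ranked without Igfbp2, and proton over photon 0.789 with the 10% limit and 0.821 ranked without Igfbp2. The cause of these moves was not tested.

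Counts of called genes moved with the thresholds, as fewer or more genes entered. With a mean of at least 10 CPM, photon over control gave 575 higher and 1223 lower, proton over control 1319 and 1598, proton over photon 1893 higher, and members over others 219 and 387. With at least 50 CPM they were 146 and 341, 403 and 653, 689 higher, and 65 and 131. At 2-fold they were 103 and 84, 217 and 367, 319 and 279, and 27 and 61. Scaling by the median gene ratio gave 425 and 381 for photon over control and 167 and 157 for members over others. Taking 7% within each library gave 982 lower for photon over control and 134 lower for members over others, and ranking without Apoe gave 555 higher for photon over control.

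On the log2 scale, these genes or lists changed direction. Fxyd2 in photon over control was 0.57 with a 5% limit. Psca in photon over control was -0.76 without the 5% of barcodes with most UMIs, -4.12 ranked without Plac8 and -0.80 in Apoe-led members, and in proton over photon it was 1.65 ranked without Plac8 and 1.35 in Apoe-led members. Sprr2d in proton over photon was 2.07 ranked without Plac8 and 1.35 in Apoe-led members, Sprr2f 0.72 and 2.35, and Ppbp 1.35 in Apoe-led members. The squamous list, members over others in photon, was -0.25 in Apoe-led members. Leaving out barcode sequences kept in more than 1 library left all 196 list medians and named genes in the same direction and on the same side of the 1.5-fold mark, while counts of called genes moved slightly (for example to 274 and 646 for photon over control). For the other settings, between 181 and 196 of these kept their direction and side of the 1.5-fold mark (184 of 192 with a mean of at least 50 CPM).

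Depth limits mainly the control members, whose 1103099 UMIs come from 273 barcodes, and members with 2 rule UMIs can enter or leave by 1 UMI.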
